A study of Mus musculus with 50 samples.

Results

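The effect of 48 h of interferon-gamma (IFN-γ) on developing oligodendrocytes was described here with wild-type and Nrf2 -/- cells pooled. The members were the 10 libraries of 48 h that were either treated with IFN-γ (5 libraries) or left untreated (5 libraries), chosen by hour and treatment from a series of 50 libraries. Oligodendrocyte precursor cells had been immunopanned from the cortices of 6-day-old C57BL/6 mouse pups, kept in proliferation medium through 2 passage cycles and moved to differentiation conditions for 12 to 14 h before plates were assigned at random to treatment. Total RNA was sequenced on an Illumina HiSeq. The untreated arm held 2 wild-type and 3 Nrf2 -/- libraries, the treated arm held 2 wild-type and 3 Nrf2 -/- libraries given 200 U/ml IFN-γ, and Nrf2 -/- cells were homozygous for a null allele of Nfe2l2, the gene of the oxidative stress transcription factor NRF2. Genotype followed the titles and entered the model as a covariate. The labels do not say whether libraries of a group came from separate cultures or litters, so the p-values measure the spread between libraries, part of which is technical if cultures were shared.

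IFN-γ is a cytokine of T cells and natural killer cells. It binds the IFNGR1/IFNGR2 receptor, and signalling through the kinases JAK1 and JAK2 leads to transcription from promoters with gamma-activated sequences (GAS). A later wave of transcription runs through interferon regulatory factors, which bind interferon-stimulated response elements (ISRE). Oligodendrocytes make the myelin of the central nervous system, and immature members of the lineage are known to be sensitive to this cytokine in inflammatory demyelination.

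Libraries held between 34428567 and 37321918 counted reads and 18524 to 19271 detected genes. The first principal component of the log2 values carried 80.8% of the variance and separated treated from untreated libraries, and the second carried 4.22%. Nfe2l2 stood at 60.7 and 67 CPM, counts scaled to library size, in untreated and 28.6 and 36.6 CPM in treated wild-type libraries, against 0.409 to 0.682 CPM in the 6 Nrf2 -/- libraries. Xist, transcribed in female cells, stood at 365–574 CPM in 4 Nrf2 -/- libraries, 2 untreated and 2 treated, and at 0.325–9.32 CPM in the other 6, so it was balanced over treatment and not over genotype. The untreated 48 h library of Nrf2 -/- replicate 1 carried more Gbp2 (1.07 CPM against 0.127–0.271 CPM in the other 4) and Iigp1 (0.475 CPM against 0.0807–0.159 CPM). The labelled cell type was checked against lineage markers: Olig2 stood at 236–251 CPM untreated and 304–357 CPM treated, and Sox10 at 721–816 CPM untreated and 463–779 CPM treated.

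Promoter sequence is shown first, for induced genes whose window held a match to the elements through which this cytokine is known to act. A window of 250 bases before the start of each gene was read from the RefSeq promoter table (build GRCm38.p6) and searched on both strands for GAS (TTCNNNGAA) and ISRE (GAAA, any 2 bases, GAAA). Of the 170 genes in the interferon lists below or among the 12 highest fold changes, 117 had an entry, with 133 entries in all. A GAS match was present in 18% and an ISRE match in 27.8% of those entries, against 7.02% and 2.98% of all 32851 entries, and 36.8% held at least one of them, against 9.66%. Of the genes with the 12 highest fold changes 6 had an entry, and 4 of these held a match. The 6 printed entries were chosen for holding a match, highest fold change first, and capitals mark the matches. Igtp and Gbp5 lie outside the 12.
Gm12185 (chr11:48927183-48927432, minus strand): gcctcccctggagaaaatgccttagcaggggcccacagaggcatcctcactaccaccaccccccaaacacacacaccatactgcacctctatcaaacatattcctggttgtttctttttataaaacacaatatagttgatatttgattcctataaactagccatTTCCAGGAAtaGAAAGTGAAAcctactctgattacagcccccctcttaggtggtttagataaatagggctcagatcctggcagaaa
Tgtp2 (chr11:49064213-49064462, minus strand): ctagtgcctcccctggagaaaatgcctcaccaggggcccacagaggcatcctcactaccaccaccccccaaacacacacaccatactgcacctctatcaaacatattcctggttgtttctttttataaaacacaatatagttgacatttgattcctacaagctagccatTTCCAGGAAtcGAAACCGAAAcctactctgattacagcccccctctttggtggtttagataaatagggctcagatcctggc
Tgtp1 (chr11:48992247-48992496, minus strand): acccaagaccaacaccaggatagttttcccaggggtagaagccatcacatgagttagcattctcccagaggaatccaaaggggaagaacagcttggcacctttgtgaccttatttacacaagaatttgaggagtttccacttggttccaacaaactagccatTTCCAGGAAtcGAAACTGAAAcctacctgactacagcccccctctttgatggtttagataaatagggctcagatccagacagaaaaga
Gbp2 (chr3:142620413-142620662, plus strand): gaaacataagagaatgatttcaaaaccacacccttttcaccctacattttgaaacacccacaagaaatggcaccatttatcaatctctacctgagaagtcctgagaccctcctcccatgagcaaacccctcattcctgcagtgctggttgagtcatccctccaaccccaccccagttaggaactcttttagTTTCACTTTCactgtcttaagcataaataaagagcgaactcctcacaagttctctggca
Igtp (chr11:58199306-58199555, plus strand): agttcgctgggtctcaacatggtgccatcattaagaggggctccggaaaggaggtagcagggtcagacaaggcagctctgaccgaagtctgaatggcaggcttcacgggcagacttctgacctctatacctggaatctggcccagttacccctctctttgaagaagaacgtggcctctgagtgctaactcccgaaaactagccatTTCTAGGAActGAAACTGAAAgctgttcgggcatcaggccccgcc
Gbp5 (chr3:142496684-142496933, plus strand): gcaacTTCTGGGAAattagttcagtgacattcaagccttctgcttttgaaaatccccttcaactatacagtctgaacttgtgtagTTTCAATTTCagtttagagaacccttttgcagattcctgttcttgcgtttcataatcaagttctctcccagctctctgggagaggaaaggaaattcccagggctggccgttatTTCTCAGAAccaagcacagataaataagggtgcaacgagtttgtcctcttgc
In Gm12185, Tgtp2, Tgtp1 and Igtp a GAS match was followed by an ISRE match with 2 bases between them, the GAS beginning 86, 81, 88 and 45 bases before the start. The windows of Gm12185, Tgtp2 and Tgtp1 are nearly the same around the matches, so they are not separate observations. Gbp2 held an ISRE match alone, and Gbp5 held 2 GAS matches on either side of an ISRE match, at gaps of 71 and 103 bases. ISRE matches were found for 5 of 5 guanylate-binding protein genes with an entry and 6 of 7 immunity-related GTPases. A match of either kind was present for 17 of 30 antiviral interferon-stimulated genes, 4 of 9 MHC class I heavy chain genes and 6 of 18 receptor, JAK-STAT and feedback genes. It was present for 2 of 8 MHC class II and 2 of 8 complement genes, 1 of 11 immunoproteasome and peptide-loading genes, 2 of 16 structural myelin protein genes and 2 of 23 cell cycle genes. Other interferon lists also held few matches: 1 of 7 PARP family and Dtx3l genes, 2 of 9 chemokine, adhesion and checkpoint genes, and 0 of 3 tryptophan, nitric oxide and pterin genes. A match describes letters in the window and is not a measured binding site.

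With IFN-γ for 48 h, 8224 of 15148 tested genes changed (edgeR quasi-likelihood test, Benjamini-Hochberg adjusted p under 0.05). Of the tested genes 27.9% rose (4232) and 26.4% fell (3992), so each count of list members below is read against those shares. Genes with next to no untreated reads passed the filter through treated libraries alone. A rise was the only call open to them, so their part in such counts is no separate support. Changes of at least 2-fold were called for 934 genes that rose and 1086 that fell. The median log2 fold change (treated minus untreated) over all tested genes was 0.002, and 6357 genes had no overlap between the 5 treated and 5 untreated libraries, 6292 of them called. Of the called genes, 8219 had the same sign of estimate in both genotypes. The call came from these same libraries with the genotypes pooled, which favours a shared sign. This count is therefore no test of agreement between the genotypes. In bulk RNA, fewer cells of a type and less RNA per cell cannot be told apart, and this holds for every fall and rise below.

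Most signalling genes of the pathway itself rose, and neither receptor chain gene did. In the list of receptor, JAK-STAT and feedback genes 15 of 21 tested rose, 2 fell and 4 did not pass, with a median log2 fold change of 1.10. Irf1, an early transcription factor target of the pathway, stood at 11.8 and 10.5 CPM (wild type) and 11.5, 12 and 12 CPM (Nrf2 -/-) untreated. It rose to 784 and 687 CPM (wild type) and 679, 684 and 729 CPM (Nrf2 -/-), with no overlap and a log2 fold change of 5.95 ± 0.07 (SE; edgeR adjusted p = 6.22e-15). Irf8, best known from myeloid cells, rose from 0.478–0.888 to 230.0–259.9 CPM (8.55 ± 0.13, SE). Jak1, Jak2, Stat2 and Irf9 rose by 1.37 ± 0.07, 1.10 ± 0.05, 2.97 ± 0.05 and 3.39 ± 0.06 on the log2 scale (SE). The receptor chain gene Ifngr1 fell slightly (-0.27 ± 0.08, SE; edgeR adjusted p = 0.0176), a call that ended without untreated wild-type replicate 1 (-0.21), and Ifngr2 did not pass (-0.06 ± 0.15, SE; edgeR adjusted p = 0.759). Feedback genes were among the members that rose: Socs1, an inhibitor of JAK kinases, went from 0.148–0.412 to 18.1–26.4 CPM and Usp18, a negative regulator of interferon receptor signalling, went from 0.108–0.254 to 74.8–90 CPM, while Socs3 changed by 0.63 ± 0.06.

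The 12 highest fold changes under the naming rule were mostly interferon-inducible GTPases, which act against pathogens inside cells by attacking the membranes around them. All 10 tested guanylate-binding proteins and all 10 tested immunity-related GTPases rose. Their summed levels were 19.2–23.5 CPM in untreated and 11707–13225 CPM in treated libraries for the former and 16.2–19.2 CPM in untreated and 15138–18096 CPM in treated libraries for the latter. Gbp2 stood at 0.161 and 0.271 CPM (wild type) and 1.07, 0.127 and 0.239 CPM (Nrf2 -/-) untreated. With IFN-γ it stood at 7736 and 7328 CPM (wild type) and 6769, 6848 and 7461 CPM (Nrf2 -/-), a log2 change of 14.25 ± 0.36, SE; edgeR adjusted p = 1.27e-10. Leaving out the untreated library with the highest Gbp2 gave 15.11, and for Iigp1 15.76 in place of 15.10. Irgm1, which regulates the other GTPases of its family, was already expressed without treatment, at 17.2 and 15.6 CPM (wild type) and 17.7, 16.5 and 18.6 CPM (Nrf2 -/-). It rose to 3540.3 and 3169 CPM (wild type) and 2983, 2987 and 3199.8 CPM (Nrf2 -/-), by 7.53 ± 0.09 (SE; edgeR adjusted p = 4.85e-15).

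Several of these genes had next to no reads without treatment, so their fold change is only bounded. Gm12185 and Gbp8 had no read in any of the 5 untreated libraries and were at least 10166-fold and 6169.9-fold higher with IFN-γ, computed against a floor of 3 counts over the untreated group. The same bound for Gm5970 was 4082-fold. Ifi47 had 3 untreated reads in all, and the ratio of its group levels was 56226 (19239 to 272643) with its 95% interval, which covers counting error only. The median log2 fold change was 11.15 over the guanylate-binding proteins (10.79 with Gbp8 at its bound) and 14.05 over the immunity-related GTPases. Gm4951, Gbp10, Tgtp1, Tgtp2, Gbp4 and 9930111J21Rik2 completed the 12, at 1000.3, 261, 212, 1447, 1593 and 288 CPM on average with IFN-γ. Tgtp1 and Tgtp2, and Gbp6 and Gbp10, are near-identical copies, and Gm12185 with Tgtp1 and Gbp4 with Gbp8 overlap in the annotation, so reads are split between them with uncertainty.

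**Figure D1:**
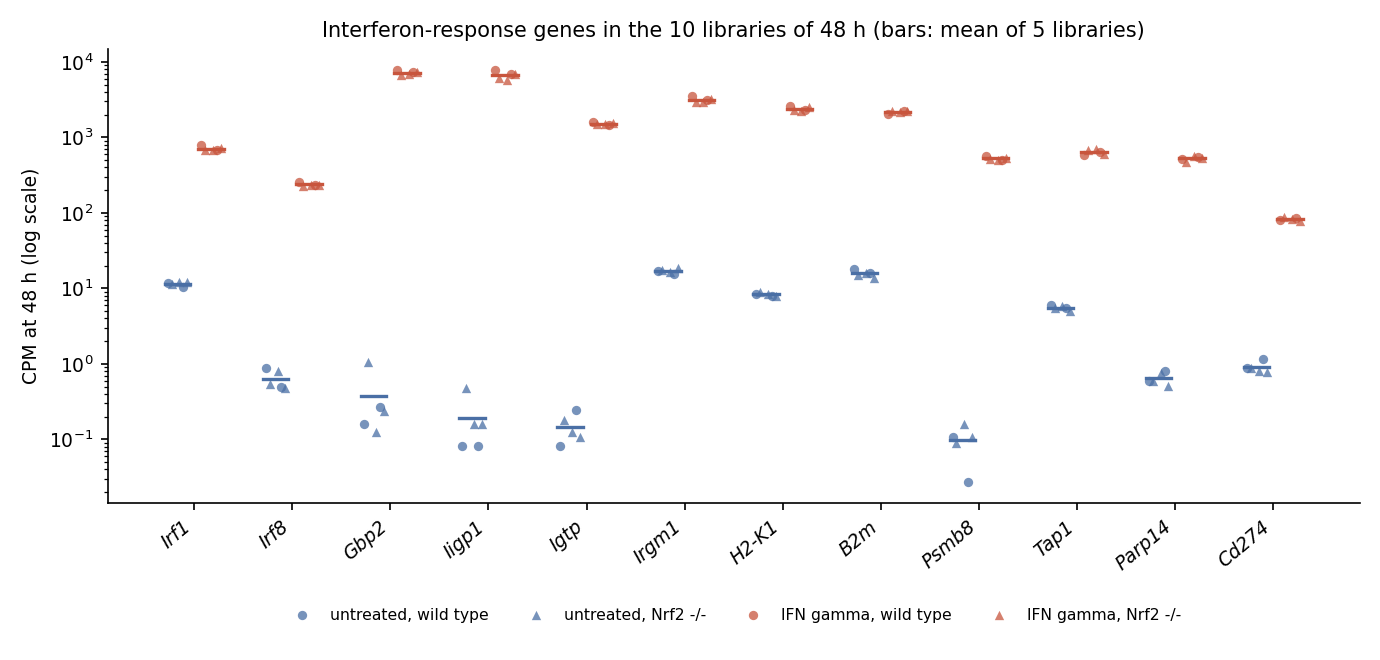
CPM in each of the 10 libraries of 48 h (vertical log axis) for genes of the interferon lists, untreated beside IFN-γ, with wild-type and Nrf2 -/- libraries marked separately. Every gene shown separates the treated from the untreated libraries, as Irf1 does with 10.5–12 CPM against 679–784 CPM.

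Transcripts of the listed genes for antigen presentation to CD8+ T cells rose as a whole. All 12 listed MHC class I genes rose (median log2 fold change 7.92, or 7.38 with the one member without untreated reads at its bound), and their summed level was 94.3–99 CPM in untreated and 10041–10732 CPM in treated libraries. The classical heavy chain gene H2-K1 stood at 8.32 and 7.86 CPM (wild type) and 8.87, 8.53 and 7.94 CPM (Nrf2 -/-) untreated. It reached 2627 and 2335 CPM (wild type) and 2341, 2216 and 2492 CPM (Nrf2 -/-) with IFN-γ, a change of 8.18 ± 0.08 (SE; edgeR adjusted p = 2.88e-15). B2m, the invariant light chain, rose from 13.7–18.3 to 2030.2–2269 CPM (7.11 ± 0.09), and Nlrc5, the class I transactivator, rose from 22–24.7 to 459–758 CPM (4.74 ± 0.13). All 13 immunoproteasome and peptide-loading genes rose, with a median of 5.05. The catalytic subunit gene Psmb8 went from 0.0271–0.159 to 505–569 CPM (12.37 ± 0.14) and Tap1, which pumps peptides into the endoplasmic reticulum (ER), went from 5.02–6.03 to 594–695 CPM (6.86 ± 0.08). Calr and Pdia3, general ER chaperones that also serve the loading complex, rose least in that list, by 0.73 ± 0.07 and 0.36 ± 0.06. Members of the H2-Q and H2-T families are close copies of each other, so their separate values are uncertain.

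MHC class II genes, which present peptides to CD4+ T cells, rose to low levels, most of them from under 1 CPM. Of the 11 listed genes 7 were tested and all 7 rose (median 8.01, 7.75 with Cd74 at its bound). Their summed levels were 6.77–9.32 CPM in untreated and 93.8–111 CPM in treated libraries. Cd74, H2-Aa, Ciita and H2-Eb1 passed the filter through the treated libraries alone, so for them being tested already favoured a rise. Ciita, the class II transactivator, went from 0–0.0538 to 14.8–17.4 CPM, whereas H2-DMa, which helps to load peptides, was already at 6.15–8.48 CPM untreated and stood at 14.3–17.4 CPM treated (1.08 ± 0.09). H2-Eb1 went from 0–0.222 to 26.6–32 CPM, H2-Ab1 went from 0.451–0.969 to 20.1–28.8 CPM and H2-Aa, with 2 untreated reads in all, went from 0–0.0297 to 10.8–12.5 CPM. Cd74, the invariant chain, had no untreated read and stood at 1.32 and 3.61 CPM (wild type) and 4.12, 7.09 and 2.25 CPM (Nrf2 -/-) with treatment. That was at least 216-fold higher in these gene counts. The kallisto counts gave smaller log2 changes, 5.49 in place of 10.04 for Cd74 and 3.63 in place of 8.98 for Ciita. Beside these values, the defining microglia and macrophage markers were at or near 0: Aif1, Tmem119, Trem2, Tyrobp, C1qa, C1qb and C1qc had no read in any of the 10 libraries, and 15 of 18 listed markers were under 1 CPM. The summed level of that list was 26.4–31.3 CPM in untreated and 27.7–35.7 CPM in treated libraries, and of its 4 tested members P2ry12 rose (0.51 ± 0.11).

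Genes of the antiviral programme, better known from type I interferon, also rose: 33 of 34 tested, with a median of 7.08. Oasl2 went from 0–0.106 to 197–229 CPM, Ifit3 went from 0.159–0.406 to 262–315 CPM and Zbp1, a sensor of Z-form nucleic acid, went from 0–0.254 to 127–144 CPM. Isg20 was the member that did not pass, at -0.32 ± 0.27 (SE; edgeR adjusted p = 0.342). All 10 listed members of the PARP family group with Dtx3l rose (median 5.75). Parp14 went from 0.505–0.813 to 473–561 CPM (9.65 ± 0.11) and Parp8 changed least (0.25 ± 0.05). Of 5 tested tryptophan, nitric oxide and pterin genes 3 rose and 1 fell (median 2.83). Wars, a tryptophanyl-tRNA synthetase induced by this cytokine, rose from 72.4–75.7 to 603–835 CPM (3.35 ± 0.09, SE; edgeR adjusted p = 9.08e-12), whereas Ido1, which degrades tryptophan, reached only 0.109–0.379 CPM.

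Some genes for signals to other cells also rose. Of the 16 genes in the chemokine, adhesion and checkpoint list 8 had enough reads to be tested. Of those 8, 7 were higher (median 2.90) and 5 were higher without overlap. Cd274, encoding the checkpoint ligand PD-L1, rose from 0.77–1.16 to 78.6–87.4 CPM (6.52 ± 0.09, SE; edgeR adjusted p = 2.43e-14). Cxcl10, a chemokine for T cells, had no untreated read and reached 0.659–1.63 CPM, at least 74.2-fold higher, and Icam1 reached 1.11–1.55 CPM (log2 change 4.31 ± 0.33, and 0.74 with kallisto counts). Of 8 tested complement genes 6 rose and 1 fell. Among those that rose were C4b (2.57–3.9 CPM untreated and 84.1–102 CPM treated; 4.78 ± 0.11), C2 (6.38 ± 0.16) and Serping1, the C1 inhibitor (0–0.108 CPM untreated and 114–142 CPM treated).

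Members of the list of cell death genes and p53 targets moved in both directions. Of 25 tested members 12 rose, 8 fell and 5 did not pass (median 0.15). Among those that rose, the inflammatory caspase gene Casp12 went from 0.0951–0.65 to 41.9–53.5 CPM (7.51 ± 0.26), Casp1 went from 0.159–0.271 to 12.9–17.7 CPM (6.03 ± 0.14), Casp4 from 0.133–0.19 to 13.2–16.6 CPM (6.41 ± 0.15), and Mlkl, the executioner of necroptosis, from 1.16–1.4 to 19.1–21.9 CPM (3.99 ± 0.08). The death receptor gene Fas, also a known p53 target, rose by 3.29 ± 0.16. Among those that fell, the cell cycle inhibitor gene Cdkn1a, a known target of p53, stood at 63.8 and 87.4 CPM (wild type) and 73.2, 71.1 and 68.4 CPM (Nrf2 -/-) untreated. All 5 treated libraries were lower, at 29.7 and 27.5 CPM (wild type) and 32, 28.6 and 32.2 CPM (Nrf2 -/-), a change of -1.28 ± 0.09 (SE; edgeR adjusted p = 8.62e-08). Bbc3, which encodes the pro-death protein PUMA, went from 42.6–51.5 to 17.3–21.7 CPM (-1.26 ± 0.07), and Ccng1, the death receptor gene Tnfrsf10b, Pmaip1 and Mdm2 fell by 0.84 ± 0.06, 1.39 ± 0.26, 0.69 ± 0.07 and 0.61 ± 0.11 on the log2 scale (SE). Bax did not pass, at -0.13 ± 0.05 (SE; edgeR adjusted p = 0.0692).

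Myelin protein genes were lower in treated cells and still expressed. Of 20 structural myelin protein genes 16 fell and 1 rose, the median log2 fold change was -1.43, and 15 of those that fell did not overlap between the arms. Of all 15148 tested genes 3011 were lower without overlap. The summed level of the 20 myelin protein genes was 36952–39979 CPM in untreated and 17369–21128 CPM in treated libraries. Mbp, which compacts the myelin membrane, stood at 6955 and 7115 CPM (wild type) and 6459, 6277 and 6439 CPM (Nrf2 -/-) untreated. In treated libraries it stood at 2236 and 2756 CPM (wild type) and 2291, 1978 and 2196 CPM (Nrf2 -/-), a change of -1.54 ± 0.07 (SE; edgeR adjusted p = 2.54e-09). Mag, an adhesion protein of the inner myelin membrane, stood at 2949 and 2971 CPM (wild type) and 3021, 2928 and 2540.3 CPM (Nrf2 -/-) untreated and at 1385 and 1816 CPM (wild type) and 1531, 1439 and 1513 CPM (Nrf2 -/-) treated, without overlap, a change of -0.91 ± 0.08 (SE; edgeR adjusted p = 9.04e-07).

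The members differed widely in size of change. Ermn, encoding a cytoskeletal protein of late myelinating cells, fell most: it stood at 86.3 and 81.1 CPM (wild type) and 45.9, 47.9 and 48.1 CPM (Nrf2 -/-) untreated. With IFN-γ it stood at 8.09 and 6.97 CPM (wild type) and 3.42, 2.92 and 4.09 CPM (Nrf2 -/-), a change of -3.64 ± 0.09 (SE; edgeR adjusted p = 8.28e-12). Within the wild type and within Nrf2 -/- the arms did not overlap, although untreated wild-type libraries were higher than untreated Nrf2 -/- ones. Mal, a raft protein of compact myelin, fell from 58.9–91.8 to 5.97–9.71 CPM (-3.37 ± 0.09). Plekhh1 fell from 68.4–102 to 14.8–17.2 CPM (-2.22 ± 0.10) and Mobp by 1.91 ± 0.10 on the log2 scale. At the other end, Mog, an outer-surface myelin protein, stood at 47.8 and 41.7 CPM (wild type) and 51.4, 50.9 and 44.3 CPM (Nrf2 -/-) untreated. With IFN-γ it stood at 43.2 and 36.1 CPM (wild type) and 37.3, 31 and 35.6 CPM (Nrf2 -/-), with values that overlapped and a change of -0.37 ± 0.09 (SE; edgeR adjusted p = 0.00383). Cnp did not pass (3447–4054 CPM untreated and 2913–4093 CPM treated; -0.15 ± 0.09, SE; edgeR adjusted p = 0.178), nor did Gjc3 (0.15 ± 0.06, SE; edgeR adjusted p = 0.0567). Tspan2 was the member that rose (196–257 CPM untreated and 213–354 CPM treated; 0.41 ± 0.12, SE; edgeR adjusted p = 0.018).

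**Figure D2:**
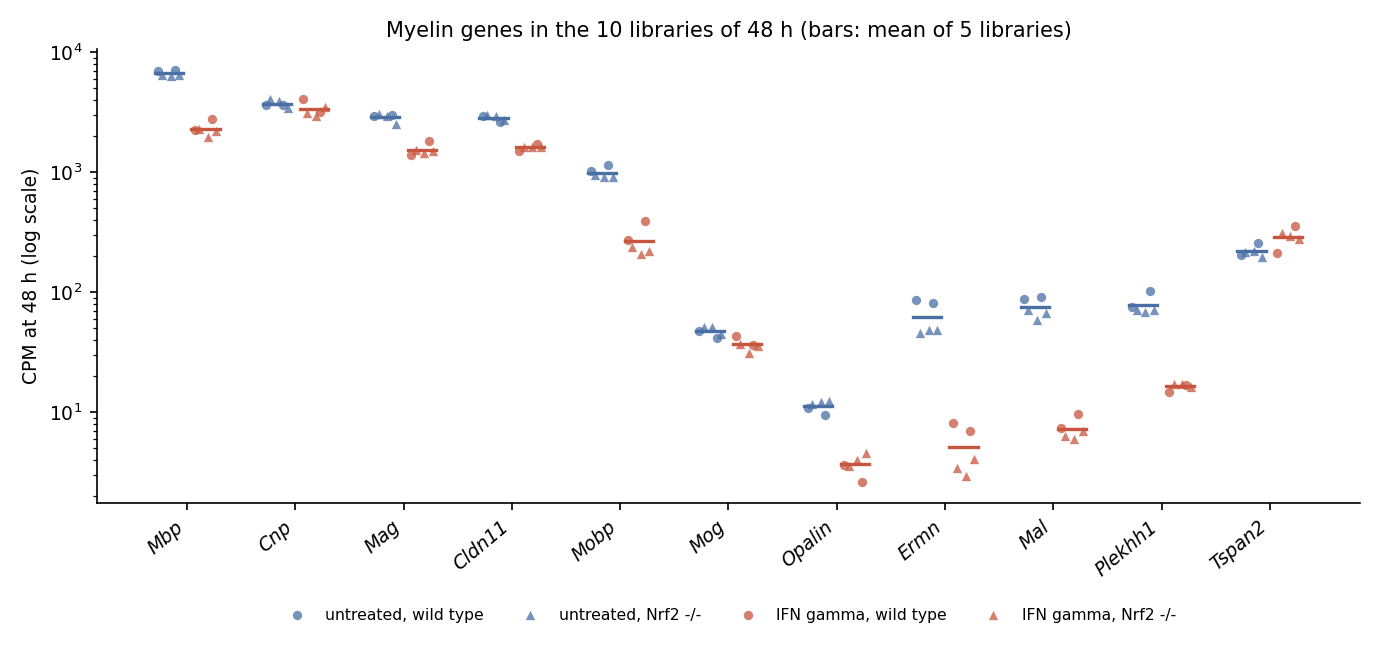
CPM in each of the 10 libraries of 48 h (vertical log axis) for myelin genes, untreated beside IFN-γ, with genotypes marked. Ermn and Mal lie far apart between the arms while Mog overlaps, at 41.7–51.4 CPM untreated and 31–43.2 CPM treated.

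Lipid genes moved less. Of 18 genes for myelin sphingolipid, galactolipid and fatty acid synthesis 14 fell and Sgms1 rose (median -0.66). Scd1 and Scd2, desaturases of fatty acids, fell from 786–1002 to 378–423 CPM (-1.15 ± 0.07) and from 3137–4993 to 1165–2580.2 CPM (-1.16 ± 0.22). Ugt8a, which makes galactosylceramide, fell by 0.58 ± 0.07 on the log2 scale, while Gal3st1, which sulfates it, did not pass (116–132 CPM untreated and 115–131 CPM treated; edgeR adjusted p = 0.973). In sterol synthesis 15 of 24 genes fell and 2 rose, with a small median of -0.26 (-0.03 in the wild type and -0.35 in Nrf2 -/-). Lower without overlap were 6 of the 24, beside 3011 of all 15148 tested genes. Their summed levels overlapped, at 10354–14387 CPM in untreated and 10438–10864 CPM in treated libraries. In wild-type libraries alone 5 of the 24 passed as lower. Lss, which closes the sterol ring, stood at 827 and 772 CPM (wild type) and 1198, 1201 and 869 CPM (Nrf2 -/-) untreated. It stood at 685 and 617 CPM (wild type) and 648, 655 and 655 CPM (Nrf2 -/-) treated, a change of -0.56 ± 0.11 (SE; edgeR adjusted p = 8.86e-04). Stard4, a sterol carrier, rose from 86.7–148 to 175–217 CPM (0.70 ± 0.11, SE; edgeR adjusted p = 1.70e-04).

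Transcription factors of the lineage changed in both directions: 6 of 16 rose and 4 fell (median -0.01), beside the 27.9% and 26.4% of all tested genes. Myrf, the master regulator of myelin genes, stood at 375 and 781 CPM (wild type) and 496, 485 and 455 CPM (Nrf2 -/-) untreated and at 191 and 276 CPM (wild type) and 318, 294 and 198 CPM (Nrf2 -/-) treated, a fall of 1.02 ± 0.21 on the log2 scale (SE; edgeR adjusted p = 0.00215). Untreated values ranged widely in the wild type, where one library stood at 375 CPM and the other at 781 CPM. Zfp536 and St18 also fell, by 1.49 ± 0.15 and 1.01 ± 0.07. Olig1, Olig2 and Nkx2-2, which specify the lineage, rose by 0.46 ± 0.10, 0.43 ± 0.04 and 0.70 ± 0.18, and Sox10 did not pass (-0.22 ± 0.10, SE; edgeR adjusted p = 0.0831). Without untreated wild-type replicate 1 the number that fell was 7, and it was 8 in the fit to 40 libraries.

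The 12 largest falls under the naming rule held Ermn and Dct, with Dct going from 93.9–131 to 6.98–12.5 CPM (-3.62 ± 0.09). Maf, a transcription factor, went from 10.6–20.5 to 0.488–0.738 CPM (-4.33 ± 0.18), with untreated wild-type replicate 2 at 20.5 CPM above the other 4. Pcdh8, a protocadherin, went from 24.1–34.9 to 1.95–2.37 CPM (-3.79 ± 0.10), and Cr2, a complement receptor, went from 2.63–3.9 to 0–0.158 CPM (-5.93 ± 0.35). Gipr, Ceacam2, Slc17a8 and Arhgef37 fell by 3.81 ± 0.20, 3.67 ± 0.20, 3.63 ± 0.20 and 3.61 ± 0.20, and BC106179 and 2210011C24Rik by 4.28 ± 0.33 and 3.73 ± 0.11. The kallisto counts gave smaller falls for the low-level genes, at -2.45 for Cr2, -1.53 for BC106179 and -1.38 for Slc17a8. On the scale of the 40-library fit their untreated means at 24 h were low: 0.0176 CPM for Cr2, 0.668 for Maf, 0.122 for Gipr, 2.03 for Ermn, 2.25 for Dct and 2.91 for Pcdh8.

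Precursor and committed-stage markers did not move one way. Of 20 tested 7 rose and 4 fell (median 0.09). Neu4, a sialidase, rose from 5.58–7.65 to 43.5–53.2 CPM (2.93 ± 0.07, SE; edgeR adjusted p = 6.49e-12), and Ptprz1, a phosphatase of precursors, by 1.21 ± 0.15. Pdgfra, the receptor that marks precursors, was at 0.12 ± 0.07 (SE; edgeR adjusted p = 0.174) and Gpr17, a receptor of committed cells, at 0.20 ± 0.11 (SE; edgeR adjusted p = 0.132). Among inhibitors of differentiation 6 of 21 rose and 11 fell (median -0.49). Bmp4, a ligand that opposes oligodendrocyte differentiation, stood at 9.02 and 6.58 CPM (wild type) and 9.79, 7.64 and 8.1 CPM (Nrf2 -/-) untreated. All 5 treated libraries were higher, at 36.5 and 25.3 CPM (wild type) and 33.9, 29.8 and 31.6 CPM (Nrf2 -/-), a rise of 1.93 ± 0.12 (SE; edgeR adjusted p = 5.28e-08). Id1 and Id4, usual targets of BMP signalling, fell from 10.7–17.1 to 2.32–5.85 CPM (-1.94 ± 0.18) and from 12–15.8 to 1.85–2.66 CPM (-2.54 ± 0.10), as did Smad7 (-1.30 ± 0.17). Notch1, Dll1, Sox11 and Sox2 rose by 0.71 ± 0.13, 0.88 ± 0.04, 0.85 ± 0.08 and 0.51 ± 0.07.

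Cell cycle genes were higher in treated cells: 26 of 28 rose and none fell (median 0.75), with Mcm4 (0.13 ± 0.08, SE; edgeR adjusted p = 0.179) and Rrm2 (0.19 ± 0.19, SE; edgeR adjusted p = 0.423) not passing. Top2a, which untangles DNA before division, stood at 225 and 225 CPM (wild type) and 197, 183 and 229.7 CPM (Nrf2 -/-) untreated and at 482 and 441 CPM (wild type) and 499, 517 and 507 CPM (Nrf2 -/-) treated (1.21 ± 0.07, SE; edgeR adjusted p = 3.87e-08). Mki67 rose from 116–173 to 197–257 CPM (0.69 ± 0.11). Ccnd1, the G1 cyclin, rose by 0.75 ± 0.08.

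Chaperones of the ER rose modestly, whereas the ATF4 branch of the stress response showed no common direction. Of 22 ER chaperone and degradation genes 12 rose and 3 fell (median 0.32). Hspa5, which encodes BiP, stood at 323 and 284 CPM (wild type) and 329, 314 and 317 CPM (Nrf2 -/-) untreated and at 462 and 495 CPM (wild type) and 473, 509 and 528 CPM (Nrf2 -/-) treated (0.65 ± 0.05, SE; edgeR adjusted p = 5.77e-07). Xbp1, a transcription factor of the unfolded protein response, rose from 24.5–29.3 to 47.5–62.9 CPM (0.98 ± 0.08). Of 24 integrated stress response genes 7 rose and 5 fell (median 0.03): Atf4 stood at 0.03 ± 0.06 (SE; edgeR adjusted p = 0.719), Ddit3, which encodes CHOP, fell (-0.43 ± 0.07), as did Sesn2 (-0.83 ± 0.08). NRF2 target genes likewise held 7 that rose and 7 that fell of 23 (median 0.03), such as Txn1 (0.74 ± 0.07) and Gstm1 (-1.47 ± 0.32). Of 15 immediate early genes 6 rose and 4 fell (median 0.33), with Jun rising from 99.4–119.7 to 293–342 CPM (1.58 ± 0.06) and Dusp1 falling from 2.6–4.22 to 0.568–1.53 CPM (-1.80 ± 0.22).

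Markers of other cell types were measured beside these lists. Of 13 tested astrocyte markers 8 fell and 1 rose (median -0.95), and their summed level was 1133–1304 CPM in untreated and 789–969 CPM in treated libraries. Glul, glutamine synthetase, fell from 626–733 to 244–296 CPM (-1.33 ± 0.05) and the transporter Slc1a2 from 18.6–42.3 to 10.8–15.7 CPM (-1.17 ± 0.18). Glul was the largest part of that sum, and other high members were not lower. Aldoc stood at 126–170 CPM untreated and 193–220 CPM treated, and S100b at 260–299 CPM untreated and 264–357 CPM treated. Gfap was at 8.46–30.1 CPM untreated and 6.05–17 CPM treated (-0.61 ± 0.34, SE; edgeR adjusted p = 0.152) and Gjb6 had no read. The count that fell was 5 without treated wild-type replicate 1 and 5 in Nrf2 -/- libraries alone. Of 11 tested neuron markers 6 rose and 1 fell (median 0.59; summed 860.1–999.6 CPM in untreated and 1429–1635 CPM in treated libraries), led by Tubb3 (109–129 CPM untreated and 332–407 CPM treated; 1.63 ± 0.07) and Map2 (0.59 ± 0.06). Of 15 listed neuron markers 6 were under 1 CPM in all 10 libraries, among them Rbfox3, Stmn2, Slc17a7 and Gad2, and Slc17a6 had no read. Others were expressed, such as Elavl4, which encodes a neuronal RNA-binding protein and rose from 12.3–15.7 to 20.4–26.9 CPM. Of 14 endothelial, mural and fibroblast markers 11 were under 1 CPM, and the list summed to 3.71–5.26 CPM in untreated and 7.59–9.66 CPM in treated libraries: Acta2 (0.0317–0.488 CPM untreated and 4.74–6.64 CPM treated) and Lum (0–0.127 CPM untreated and 1.17–1.93 CPM treated) rose and Kdr (2.66–4.31 CPM untreated and 0.659–1.22 CPM treated) fell. The part of these cell types in the falls of myelin genes was not tested.

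How 48 h differed from earlier hours was tested by subtracting the response at 24 h, and at 8 h, from the response at 48 h, with each hour's own untreated libraries and the genotypes averaged (edgeR, 40 libraries, 16191 genes). Means by hour below are from that fit's scale, with the SD over 5 libraries. Against 24 h, 21.1% of genes had a higher response (3422) and 22% a lower one (3566). Against 8 h, 23.5% were higher (3806) and 19.3% lower (3123). A higher difference can come from either arm, so both are given in these results, except for the interferon genes.

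Sterol synthesis genes moved together: 22 of its 24 genes had a higher response at 48 h than at 24 h and none a lower one, as the list's median log2 response went from -1.49 at 24 h to -0.25 at 48 h. Hmgcs1, the enzyme that makes HMG-CoA, averaged 8227 ± 299 CPM untreated and 2393 ± 285 CPM treated at 24 h. At 48 h it averaged 3939.5 ± 594 and 3341 ± 142 CPM, a difference between responses of 1.59 ± 0.10 (SE; edgeR adjusted p = 6.26e-14). The untreated mean was lower and the treated mean higher at 48 h. Lss went from 2066 ± 151 and 436 ± 43.7 CPM to 1014 ± 218 and 674 ± 23.7 CPM (1.71 ± 0.12, SE; edgeR adjusted p = 3.04e-13).

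Myelin protein genes did not share one time course: 10 of 20 had a higher and 5 a lower response at 48 h than at 24 h, and the median went from -1.20 to -1.46. Mog averaged 56.4 ± 6.38 CPM untreated and 7.93 ± 1.45 CPM treated at 24 h, then 49.2 ± 4.36 and 37.8 ± 4.46 CPM at 48 h (2.48 ± 0.16, SE; edgeR adjusted p = 2.56e-13). The treated mean was close to the untreated mean at 48 h and far below it at 24 h. Mbp was higher at 48 h than at 24 h in both arms, going from 1942 ± 265 and 405 ± 93.4 CPM to 6930.0 ± 381 and 2368 ± 298 CPM, with a difference of 0.72 ± 0.18 (SE; edgeR adjusted p = 0.00186). For Ermn the reverse held: it averaged 2.03 ± 0.955 and 1.03 ± 0.361 CPM at 24 h and 64.5 ± 20.9 and 5.26 ± 2.37 CPM at 48 h (-2.66 ± 0.21, SE; edgeR adjusted p = 2.93e-12). Plekhh1 stood at 13.7 ± 1.29 and 17 ± 0.69 CPM at 24 h, and at 80.6 ± 14.7 and 17 ± 1.07 CPM at 48 h, where the untreated mean alone was higher (-2.61 ± 0.10, SE; edgeR adjusted p = 2.42e-19). Mobp, with 1026 ± 105 and 274 ± 77.6 CPM at 48 h, had a difference that did not pass (0.04 ± 0.23, SE; edgeR adjusted p = 0.922).

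**Figure D3:**
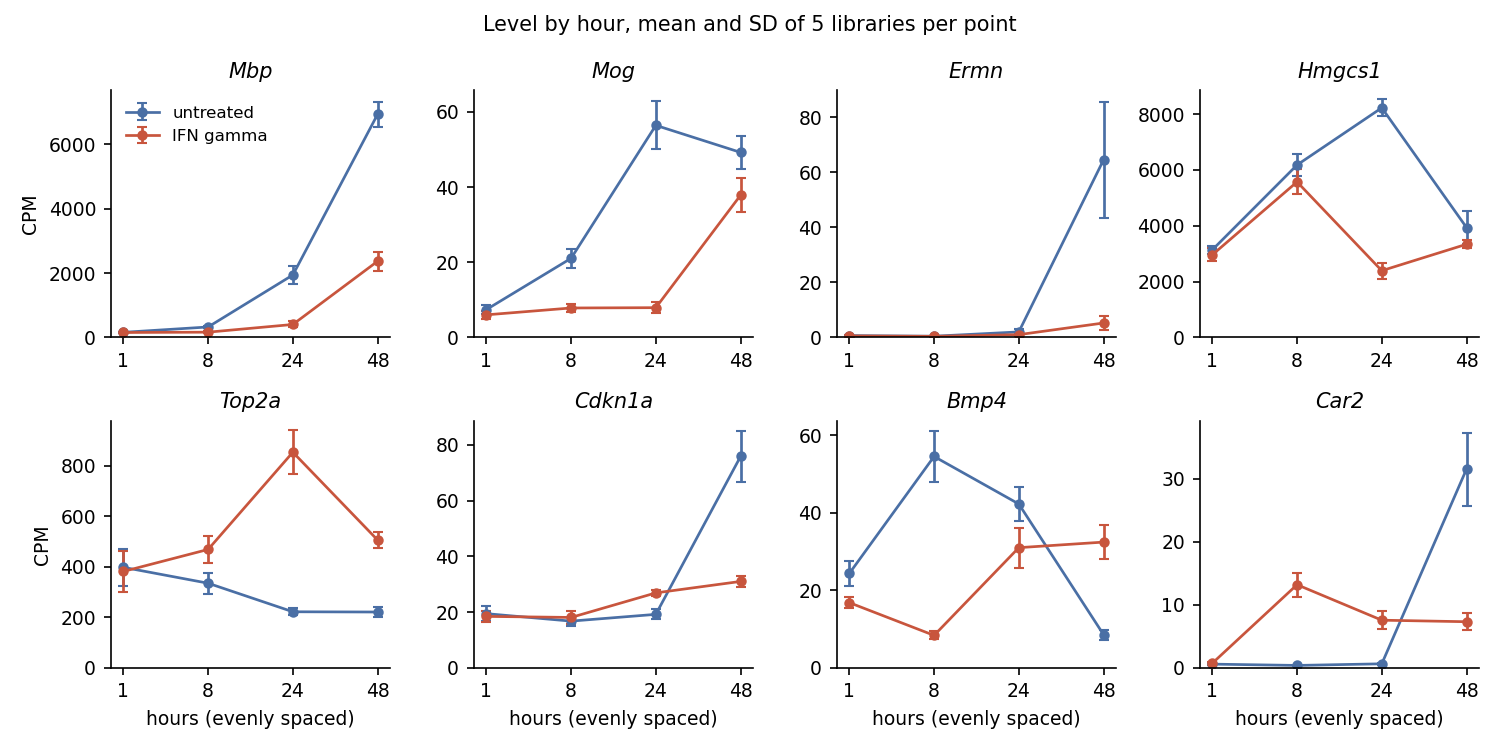
Mean CPM with SD over 5 libraries (vertical axis, linear and scaled per gene) at 1, 8, 24 and 48 h, untreated and IFN-γ, for Mbp, Mog, Ermn, Hmgcs1, Top2a, Cdkn1a, Bmp4 and Car2. The arms of Mog and Hmgcs1 are closer at 48 h than at 24 h, and those of Ermn, Cdkn1a and Car2 lie apart at 48 h with the untreated arm on top.

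The cell cycle list went the other way: 27 of 28 genes had a lower response at 48 h than at 24 h, and its median went from 1.64 to 0.71. Top2a averaged 222 ± 14.4 and 853 ± 87.1 CPM at 24 h and 221 ± 21.5 and 506 ± 30.4 CPM at 48 h (-0.76 ± 0.13, SE; edgeR adjusted p = 2.83e-05); the untreated means were alike and the treated one was lower at 48 h. Cdkn1a changed sign, from 19.2 ± 1.77 and 26.9 ± 1.12 CPM to 75.8 ± 9.28 and 31 ± 2.06 CPM (-1.82 ± 0.12, SE; edgeR adjusted p = 2.05e-13), and Bbc3 from 9.06 ± 1.33 and 15.5 ± 3.1 to 49.4 ± 3.89 and 20.4 ± 1.76 CPM (-2.04 ± 0.13, SE; edgeR adjusted p = 5.06e-14). Of 22 ER chaperone genes 16 had a higher response at 48 h: Hspa5 averaged 627 ± 29.9 and 612 ± 35.6 CPM at 24 h and 327 ± 18.1 and 509.5 ± 27.3 CPM at 48 h (0.67 ± 0.07, SE; edgeR adjusted p = 8.34e-10). The gap at 48 h came with a lower untreated level.

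Bmp4 and Neu4 reversed over the course. Bmp4 averaged 54.6 ± 6.51 CPM untreated and 8.37 ± 1 CPM treated at 8 h, 42.3 ± 4.39 and 31 ± 5.15 CPM at 24 h, and 8.57 ± 1.28 and 32.5 ± 4.3 CPM at 48 h. The 48 h response exceeded that at 8 h by 4.63 ± 0.17 (SE; edgeR adjusted p = 3.25e-19). Neu4 averaged 103 ± 5.15 and 36.9 ± 2.45 CPM at 8 h and 6.83 ± 0.795 and 51.8 ± 4 CPM at 48 h (4.41 ± 0.10, SE; edgeR adjusted p = 5.21e-26). Both genes were below untreated cells early and above them late, as untreated levels declined. Car2, a carbonic anhydrase of oligodendrocytes, did the opposite, with 0.383 ± 0.0734 and 13.2 ± 1.91 CPM at 8 h and 31.5 ± 5.81 and 7.32 ± 1.32 CPM at 48 h (-7.27 ± 0.20, SE; edgeR adjusted p = 1.03e-23).

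Astrocyte markers had a lower response at 48 h than at 24 h for 8 of 13 tested members (median -0.04 at 24 h and -0.95 at 48 h). Glul averaged 199 ± 9.5 and 217 ± 7.56 CPM at 24 h and 704 ± 51.1 and 277 ± 19.9 CPM at 48 h (-1.48 ± 0.06, SE; edgeR adjusted p = 2.42e-19). The treated means were closer to each other than the untreated ones. Genes named by the rule for the hour differences include Tspan4, a tetraspanin (untreated and treated 72 ± 15.3 and 14.2 ± 3.19 CPM at 24 h, then 44.9 ± 6.83 and 72.5 ± 8.73 CPM at 48 h; 3.08 ± 0.16, SE; edgeR adjusted p = 2.21e-15). Abca1, a cholesterol exporter, had a lower response at 48 h: 2.2 ± 0.534 and 9.95 ± 2.25 CPM at 24 h became 63.3 ± 10.8 and 17.4 ± 3.25 CPM (-4.03 ± 0.26, SE; edgeR adjusted p = 8.55e-13).

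Interferon genes were high at 48 h, but their difference from 24 h rests partly on the untreated libraries. The untreated 24 h library of Nrf2 -/- replicate 2 summed to 215.4 CPM over the guanylate-binding proteins and immunity-related GTPases, against 73.9–82.9 CPM in the other 4 untreated 24 h libraries and 35.02–41.4 CPM at 48 h. For Gbp2 the log2 difference of responses did not pass and its sign rested on single libraries: it was -0.52 (edgeR adjusted p = 0.941), -3.82 without that library and 0.14 without the untreated 48 h library of Nrf2 -/- replicate 1. Among class II genes, H2-Aa had the highest difference under the rule, its treated mean going from 9.94 ± 1.47 CPM at 24 h to 12 ± 0.686 CPM at 48 h. Its log2 difference was 4.31 ± 0.94 (SE; edgeR adjusted p = 3.69e-04), and 1.62 and not called without untreated wild-type replicate 1 of 24 h. The treated means of H2-Eb1 and the class I gene H2-M3 went from 4.97 ± 0.933 to 31.1 ± 2.28 CPM and from 4.3 ± 0.0522 to 32.5 ± 1.23 CPM between 8 and 48 h. Untreated means by hour are not given for H2-Aa, H2-Eb1, H2-M3, Gbp2 or Nlrc5. The part of the untreated arm in their differences is therefore not shown. The 48 h response of H2-Eb1 exceeded that at 8 h by 4.26 ± 0.45 (SE; edgeR adjusted p = 2.33e-09) and that of H2-M3 by 4.51 ± 0.47 (SE; edgeR adjusted p = 4.31e-09), whereas Nlrc5 had a lower response at 48 h than at 24 h (-1.74 ± 0.28, SE; edgeR adjusted p = 1.16e-05).

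**Figure D4:**
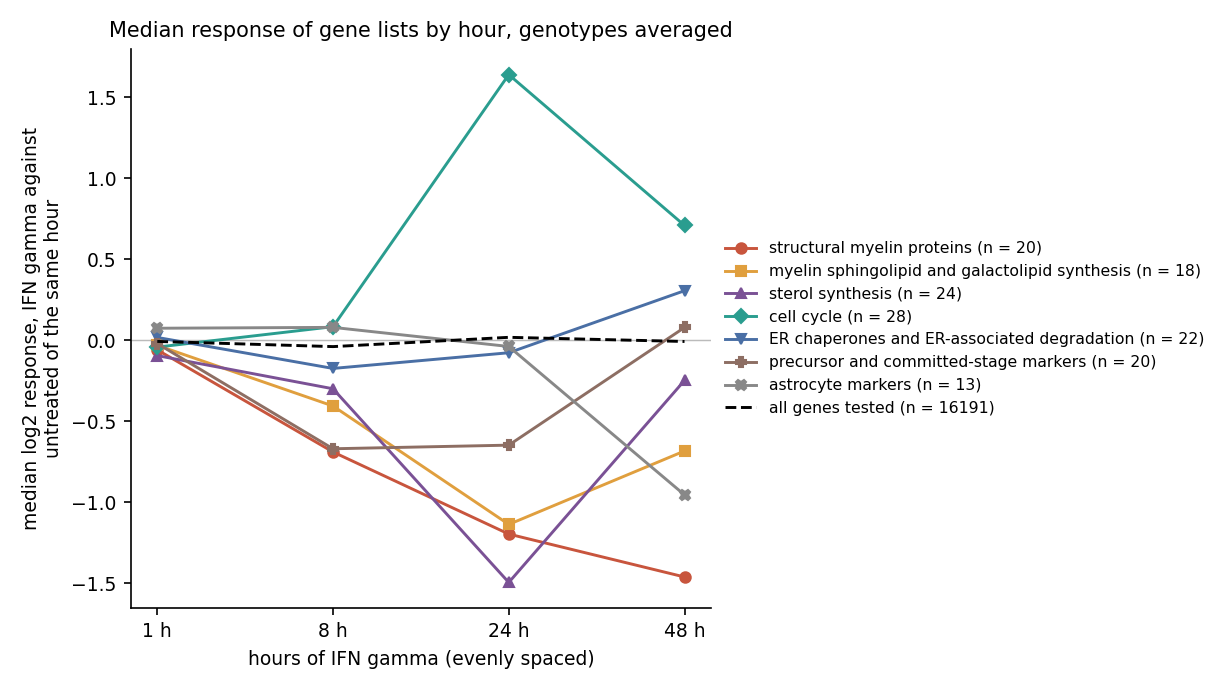
Median log2 response (treated minus untreated, vertical axis) of selected gene lists and of all genes tested at 1, 8, 24 and 48 h, from the 40-library fit. The lists are structural myelin, myelin lipid, sterol, cell cycle, ER chaperone, precursor and astrocyte genes. Sterol synthesis goes from -1.49 at 24 h to -0.25 at 48 h, cell cycle from 1.64 to 0.71, and structural myelin proteins from -1.20 to -1.46.

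Pooling the genotypes was checked by testing the difference between the Nrf2 -/- and the wild-type response at 48 h. No gene was called (0% of 15148, edgeR); 687 had an unadjusted p under 0.05, the lowest adjusted p was 0.90, and DESeq2 called none. With 2 and 3 libraries per group a missed call does not show that the responses were alike. Of 344 list genes with at least 1 CPM and 30 untreated reads, 339 had estimates within 1 log2 unit of each other in the genotypes and 316 within 0.5. For Irf1 the difference (Nrf2 -/- minus wild type) was -0.16, 95% interval -0.42 to 0.09, for Mbp -0.07 (-0.38 to 0.24) and for Ermn -0.29 (-0.66 to 0.08).

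**Figure D5:**
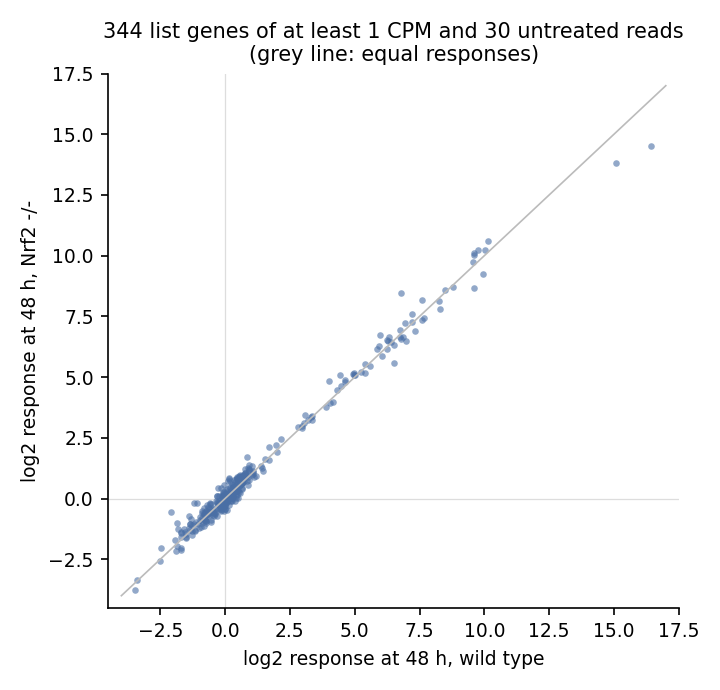
Log2 fold change at 48 h in the wild type (horizontal axis) against Nrf2 -/- (vertical axis) for 344 list genes, one point per gene, with the line of equal response. Points lie along the line, and the responses of 339 of 344 are within 1 log2 unit of each other.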

How the data were processed

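RNA sequencing counts were analysed. The authors deposited whole-number read counts per gene, made with STAR and featureCounts per the submitters' processing notes, and also deposited estimated counts per transcript, from kallisto per the same notes. For these tools the version, and for the counts the genome build, gene annotation and strand, is not given in the sources used here. Identifiers were matched to GENCODE M21 (38872 of 39056 entries). Groups followed the titles; 3 libraries of 8 h carry a genotype tag that conflicts with the title, and the tissue tag names whole brain where the protocol names cortices.

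Genes were filtered with filterByExpr (minimum count 10, minimum total 15), scaled by TMM and tested with edgeR 4.0.16 (R 4.3.3), by quasi-likelihood with robust dispersion and Benjamini-Hochberg adjustment at 0.05. The 48 h fit used 10 libraries with genotype and treatment, the genotype difference used the 4 group means of those libraries, and hour differences used 40 libraries with 16 group means. Log2 folds use a prior count of 0.125, so those of genes near 0 depend on it. SEs are the fold divided by the square root of F. The script was tested on simulated data with 200 changed genes. Replicates differed by more than sampling noise, so none was counted as a repeat deposit. The 12 highest and 12 lowest folds at 48 h, and the 8 highest and lowest of each hour difference, were named if they had an adjusted p under 0.05, a mean of at least 1 CPM and, at 48 h, no overlap within a genotype; list members were named besides. Some genes that these rules and lists hold are not reported here. Members and lists were chosen with earlier results of these data known. Alternatives were another scaling, no filter, kallisto estimated counts (rounded), DESeq2 1.42.0, other sets of libraries and leaving out each library. A term for Xist, each genotype alone and the member counts of lists were added after seeing the data. Thapsigargin libraries were not analysed here.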

Additional observations from a re-analysis of the deposited data

Results flagged for a closer look

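Single libraries stood apart from the rest of their group in 7 of the 43 groups checked at 48 h. Chance gives about 1 in 20 for measured values, a rate that does not apply to 3 of the 7, where 1 to 3 reads stood against none. In all 7 the group was the untreated one. Nrf2 -/- replicate 1 held Gbp2 at 1.07 CPM (0.127–0.271 CPM in the others), Iigp1 at 0.475 CPM (0.0807–0.159) and 9930111J21Rik2 at 0.0890 CPM (0 in the others). Nrf2 -/- replicate 2 held Gbp10 and Tgtp1 at 0.0317 CPM each, with 0 in the others. Maf stood at 20.5 CPM in wild-type replicate 2 (10.6–11.7 CPM in the others). Slc17a8 stood at 1.65 CPM in Nrf2 -/- replicate 2 (2.26–2.40 CPM in the others).

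The response at 48 h differed from that at 24 h for 3422 genes that were higher and 3566 that were lower, and from that at 8 h for 3806 that were higher and 3123 that were lower (edgeR, test of the difference itself). Log2 differences of the named genes against 24 h were, on the higher side, H2-Aa (4.31), A730036I17Rik (3.69), Elmod1 (3.28), St14 (3.25), Lama3 (3.19), Gm4961 (3.10) and Tspan4 (3.08), and on the lower side Rasd2 (-6.34), Car2 (-5.65), Crybg1 (-4.92), Phlda1 (-4.29), Selenop (-4.27), Abca1 (-4.03), Plagl1 (-3.91) and Pls1 (-3.83). Against 8 h they were, on the higher side, H2-Aa (6.88), Gm4961 (4.95), Bmp4 (4.63), H2-M3 (4.51), Neu4 (4.41), H2-Eb1 (4.26), Plekhf1 (4.16) and Lama3 (3.63), and on the lower side Clic5 (-8.39), Car2 (-7.27), Prr5l (-5.91), Vgf (-5.55), Mid2 (-5.38), Maf (-5.28), Tnc (-4.94) and C1ra (-4.84). Several of these rest on a near-0 level in one arm, so their size depends on the prior count: the untreated mean at 8 h was 0.0417 CPM for Clic5 and 0 CPM for C1ra. The plain values of Car2, Bmp4, Neu4, Abca1 and Tspan4 are given with the results above.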

How the results depend on the processing

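The 48 h count of 8224 called genes was 7439 to 8139 with a library left out, 8229 under RLE scaling, 8028 without the filter, 8563 with kallisto counts, 8344 with DESeq2, 8251 without genotype, 9196 with 40 libraries and 7923 with a term for Xist. Each genotype alone gave 5667 (wild type) and 6292 (Nrf2 -/-). The genotype difference gave 0 calls under every alternative run except without wild-type IFN-γ replicate 2, where it gave 3, so its range was 0 to 3; the cause was not tested. The count against 24 h (6988) was 6210 to 7424 with a library left out, and that against 8 h (6929) was 6020 to 7446, or 6369 without the 3 libraries with conflicting labels. Against 8 h more genes were higher than lower under TMM (3806 and 3123) and fewer under RLE (3289 and 3540) and DESeq2. No paired analysis was possible because the labels give no replicate or pair number. Counts of low-level genes are limited by depth: 40 called genes had no untreated read. With kallisto counts several low-level genes kept their direction with smaller log2 folds. Ciita gave 3.63 in place of 8.98, Cd74 5.49 in place of 10.04 and Gbp5 6.68 in place of 13.29. The gene 9930111J21Rik2 gave 6.43 in place of 13.78, Ido1 0.98 in place of 4.32 and Tnfrsf10b -0.90 in place of -1.39. In wild-type libraries alone the calls of Mog, Tspan2, Olig1, Nkx2-2, Notch1 and Lss ended with the direction kept. Of 161 named genes 11 lost a 48 h call in some alternative and 7 gained one. Among the latter, Gjc3 was called higher with kallisto counts (0.16) and Bax lower with DESeq2 (-0.13). Sox10 was called lower with 40 libraries (-0.25), and Cnp without treated wild-type replicate 1 (-0.24).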
